A study of Mus musculus with 7 samples.

Results

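The 10 genes described here are H2-Aa, H2-Ab1, H2-Eb1, H2-DMa, H2-DMb1, H2-DMb2, H2-Oa, H2-Ob, Cd74 and Ciita, the core of antigen presentation by major histocompatibility complex (MHC) class II in the mouse. They were taken by symbol from the 27998 genes of the count matrices, and all 10 were found and had UMIs (unique molecular identifiers, 1 per captured RNA molecule). The study asked how ageing changes the cells of mouse subcutaneous fat. It holds 3 old libraries (18 months) and 4 young libraries (11 to 12 weeks). Every library came from the stromal vascular fraction, the cells left when fat cells are removed, of the inguinal fat pad of female C57BL/6N mice with no other treatment. All 7 were made with the 10x Genomics 3′ v3 chemistry. Each library was read as 1 mouse. The labels do not say whether animals were pooled, so p-values measure the spread between these libraries.

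MHC class II molecules show peptides from taken-up material to CD4 T cells. H2-Aa and H2-Ab1 encode the alpha and beta chains of I-A, and H2-Eb1 the beta chain of I-E; C57BL/6 mice lack a working I-E alpha gene, so the H2-Eb1 chain has no partner in this strain. Cd74 is the invariant chain that escorts new class II molecules to the endosome. H2-DM, made of the H2-DMa chain and a beta chain from H2-DMb1 or H2-DMb2, swaps the remnant of Cd74 for peptide, and H2-O, made of the H2-Oa and H2-Ob chains, holds H2-DM back and is best known in B cells. Ciita is the coactivator that switches these genes on through proteins bound to their X and Y promoter boxes. Dendritic cells, macrophages and B cells are the usual presenting cells, and other cells can gain class II under interferon gamma.

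The 8 H2 genes lie together on chromosome 17, from 34092340 (the start of H2-Oa) to 34316674 (the end of H2-Eb1) in build GRCm38 (GENCODE M21). Ciita lies on chromosome 16, from 10480059 to 10528418. H2-DMb1 and H2-DMb2 are close copies that lie side by side, and how reads that matched both were counted is not given in the sources used here, so a part of either count is uncertain.

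The RefSeq promoter table (GRCm38.p6, 250 bases before to 50 bases after each start) held 7 of the 10 genes in 8 windows; H2-Ab1, Cd74 and Ciita had no entry. The stretch that holds the Y box is shown for the 6 genes where TGATTGG was found, because these genes share a promoter layout but not, as shown after it, the cells they were found in. Capitals mark every match of TGATTGG, the Y box with the bases before it, and of TGATG, letters of the X box core. An X box with other letters is not marked, and a marked TGATG need not lie in one. All lie upstream of the RefSeq start and are written 5′ to 3′ in the direction of the gene. They cover chr17:34287853-34287918 on the minus strand (H2-Aa) and, on the plus strand, chr17:34305761-34305826 (H2-Eb1), chr17:34153083-34153148 (H2-DMb1), chr17:34145112-34145177 (H2-DMb2), chr17:34238801-34238866 (H2-Ob) and chr17:34092289-34092354 (H2-Oa).
H2-Aa: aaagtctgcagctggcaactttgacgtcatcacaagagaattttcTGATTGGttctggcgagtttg
H2-Eb1: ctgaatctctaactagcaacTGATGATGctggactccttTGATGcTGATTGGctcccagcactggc
H2-DMb1: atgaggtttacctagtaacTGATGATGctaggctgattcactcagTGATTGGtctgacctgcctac
H2-DMb2: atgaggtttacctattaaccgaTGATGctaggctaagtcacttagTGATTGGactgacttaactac
H2-Ob: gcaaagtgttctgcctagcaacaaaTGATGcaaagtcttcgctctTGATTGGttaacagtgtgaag
H2-Oa: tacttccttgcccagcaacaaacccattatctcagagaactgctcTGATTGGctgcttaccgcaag

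The Y box began 45 bases before the start in H2-Oa and 92 bases before it in H2-DMb2, with the other 4 genes between. TGATG stood within 40 bases before TGATTGG in 4 of the 7 genes with a window (H2-Eb1, H2-DMb1, H2-DMb2 and H2-Ob), against 58 of all 32851 promoter windows (0.177%). The nearest TGATG began 6 bases before TGATTGG in H2-Eb1, and 23, 23 and 20 bases before it in H2-DMb1, H2-DMb2 and H2-Ob. TGATTGG on either strand, as TGATTGG or CCAATCA, was in 7.82% of all windows, the shorter ATTGG or CCAAT, which TGATTGG contains, in 37.4%, and TGATG or CATCA in 39.3%. In H2-Aa, TGATG was found on the opposite strand only, and in H2-Oa on neither strand. The 2 windows of H2-DMa held no TGATTGG. These are matches of letters in a window and not measured binding.

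In all, 37372 cells were kept from 45514 barcodes, and totals per library ran from 52336665 to 99516882 UMIs. Cells were clustered without the 10 genes and classes were named from other marker genes, so every class name stands for X-like cells. All 7 markers each of the B, luminal and endothelial classes were highest in their own class, as were 7 of 8 macrophage and 6 of 9 dendritic markers, and none was at 0. Between pairs of libraries, 4 to 23 barcodes were shared. The median UMI count per kept cell was 5970 to 7955 in the old and 9259 to 13782 in the young libraries, so the groups did not overlap in depth. Old replicate 3 stood apart. It had the lowest median depth and 1218 of the 2050 B-like cells, and in dendritic-like, macrophage-like and B-like cells alike it had the highest level of 6 of the 10 genes and the lowest level of Ciita.

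The antigen-presenting chains were carried by a few leukocyte classes. Macrophage-like cells held 40.2% of all H2-Ab1 UMIs, dendritic-like cells 22.8% and B-like cells 9.98%, and clusters without a class name a further 21.7%. Dendritic-like cells had the highest level relative to all RNA (CPM, library-scaled counts: the UMIs of the gene relative to all UMIs of that class in that library). H2-Ab1 averaged 10087 ± 1316 CPM in dendritic-like, 4990 ± 1845 CPM in macrophage-like and 4614 ± 615 CPM in B-like cells (mean ± SD, n = 7 libraries). It averaged 2488 ± 1112 CPM in monocyte-like cells (n = 7) and 1261 ± 324 CPM in plasma-like cells (n = 3, all old). Below these, neutrophil-like cells had 259 ± 114 CPM (n = 3) and T and NK-like cells 107 ± 70.1 CPM (n = 7).

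In the order of the 14 classes by H2-Ab1, only plasma-like and neutrophil-like cells were neighbours whose library ranges did not overlap. The 7 classes below T and NK-like cells lay between 94.0 ± 78.1 CPM in basal epithelial-like cells (n = 6) and 28.7 ± 11.1 CPM in luminal-like cells (n = 7). Endothelial-like cells had 43.6 ± 20.97 CPM and progenitor-like cells 35.5 ± 14.7 CPM (n = 7 each). H2-Aa was likewise highest in dendritic-like and lowest in luminal-like cells, with 10016 ± 2548 CPM in dendritic-like and 23.5 ± 8.72 CPM in luminal-like cells.

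**Figure D1:**
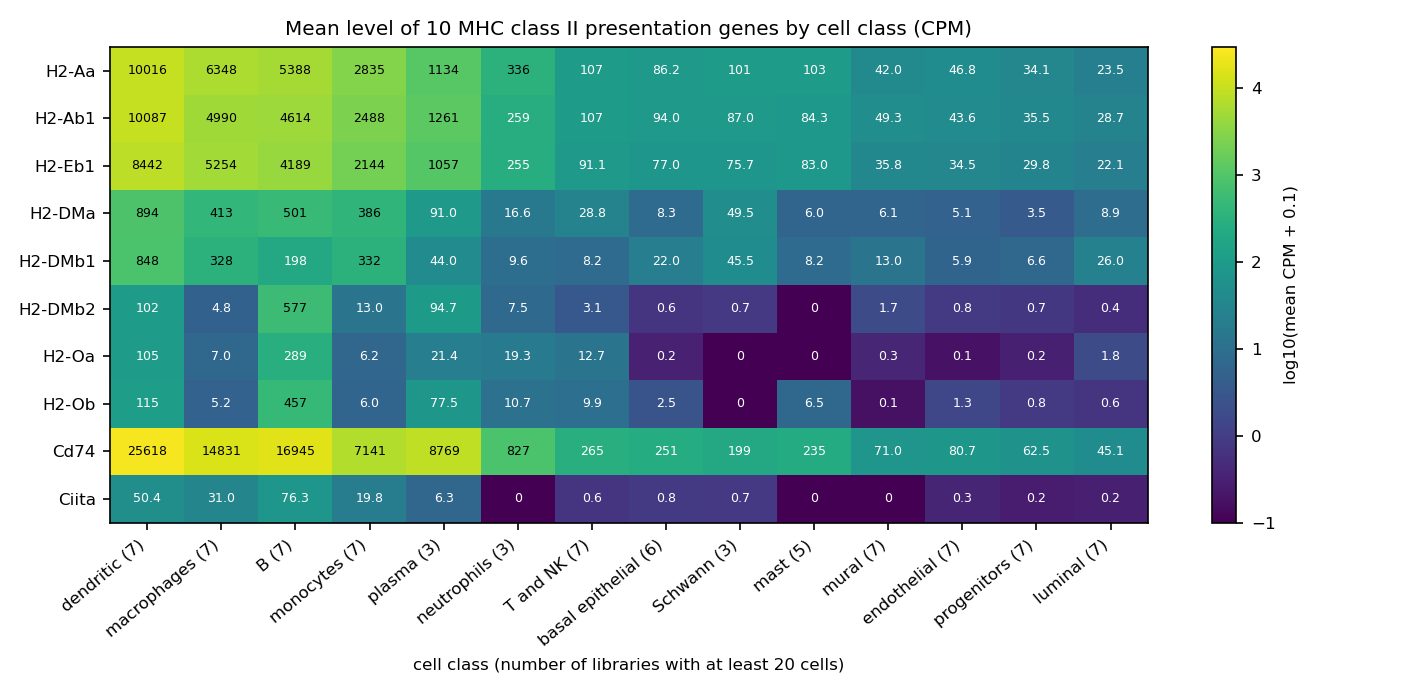
Mean level in CPM (number in each cell; colour, log10 of mean CPM + 0.1) of the 10 genes (rows) in 14 marker-based cell classes (columns, each standing for X-like cells), ordered by H2-Ab1, with the number of libraries in brackets. H2-Aa, H2-Ab1, H2-Eb1 and Cd74 were high in dendritic, macrophage and B columns, while H2-DMb2, H2-Oa and H2-Ob were highest in the B column and low in the macrophage column.

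The accessory genes divided the presenting cells. H2-DMb2, H2-Oa and H2-Ob were genes of B-like cells, which held 69.8%, 58.9% and 63.5% of their UMIs, while macrophage-like cells held 1.54%, 3.06% and 2.97%. H2-Ob averaged 115 ± 14.5 CPM in dendritic-like, 5.22 ± 1.31 CPM in macrophage-like and 457 ± 71.3 CPM in B-like cells (n = 7 each). In every library the order was the same, B-like above dendritic-like above macrophage-like cells, with no overlap. H2-DMb1 ran the other way and was lowest of the 3 in B-like cells, at 848 ± 237 CPM in dendritic-like, 328 ± 123 CPM in macrophage-like and 198 ± 64.7 CPM in B-like cells. Ciita averaged 50.4 ± 26.6, 31.0 ± 9.52 and 76.3 ± 28.3 CPM in the same 3 classes.

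Dendritic-like cells exceeded macrophage-like cells in all 10 genes (edgeR quasi-likelihood test with library as a block, Benjamini-Hochberg adjusted over all genes), where 27.2% of all genes tested were higher and 59.4% changed. The log2 fold of dendritic-like over macrophage-like cells was 1.27 for H2-Ab1, 0.87 for H2-Aa, 1.04 for Cd74 and 0.76 for Ciita. It was 4.78 for H2-DMb2, 5.00 for H2-Oa and 4.68 for H2-Ob. All 10 calls held without each library in turn. H2-Oa passed the filter on low counts in this comparison through its level in dendritic-like cells, so its fold gives a rough size only. It ran from 4.35 to 6.03 under the alternatives.

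Dendritic-like cells exceeded B-like cells in 6 genes and were below them in 4, where 30.1% of all genes tested were higher and 30.4% lower. The 6 were the I-A and I-E chains, Cd74, H2-DMa and H2-DMb1, with log2 folds from 0.72 for Cd74 to 2.20 for H2-DMb1. The 4 were H2-DMb2 (log2 fold -2.41), H2-Ob (-1.87), H2-Oa (-1.35) and Ciita (-0.56). In old libraries alone the Ciita call was lost (log2 fold -0.37, adjusted p = 0.147 in edgeR).

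Macrophage-like cells set against B-like cells differed in 7 genes, where 63% of all genes tested changed. They were above B-like cells only in H2-DMb1 (log2 fold 0.59) and far below them in H2-DMb2 (-7.20), H2-Ob (-6.55) and H2-Oa (-6.36), with Ciita at -1.38, H2-DMa at -0.41 and Cd74 at -0.34. H2-Oa passed the filter on low counts here through its level in B-like cells, and its fold ran from -7.36 to -5.58 under the alternatives. The Cd74 call was lost without old replicate 1, 2 or 3 or young replicate 2 or 3, and the H2-DMa call without old replicate 1. For H2-Aa, H2-Ab1 and H2-Eb1 no difference passed the test, with log2 folds of 0.13, -0.05 and 0.17 whose signs changed between alternatives.

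Plasma-like cells, the antibody-secreting relatives of B cells, had more Cd74 for each H2-Aa than the other presenting classes. There were 8.08 UMIs of Cd74 per UMI of H2-Aa at the median of 3 old libraries (6.78 to 8.15). The same ratio was 2.45 in dendritic-like, 2.20 in macrophage-like and 2.88 in B-like cells at the median of 7 libraries, and its highest value there was 3.79, in B-like cells. Ciita averaged 6.26 ± 4.77 CPM in plasma-like cells (n = 3).

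**Figure D2:**
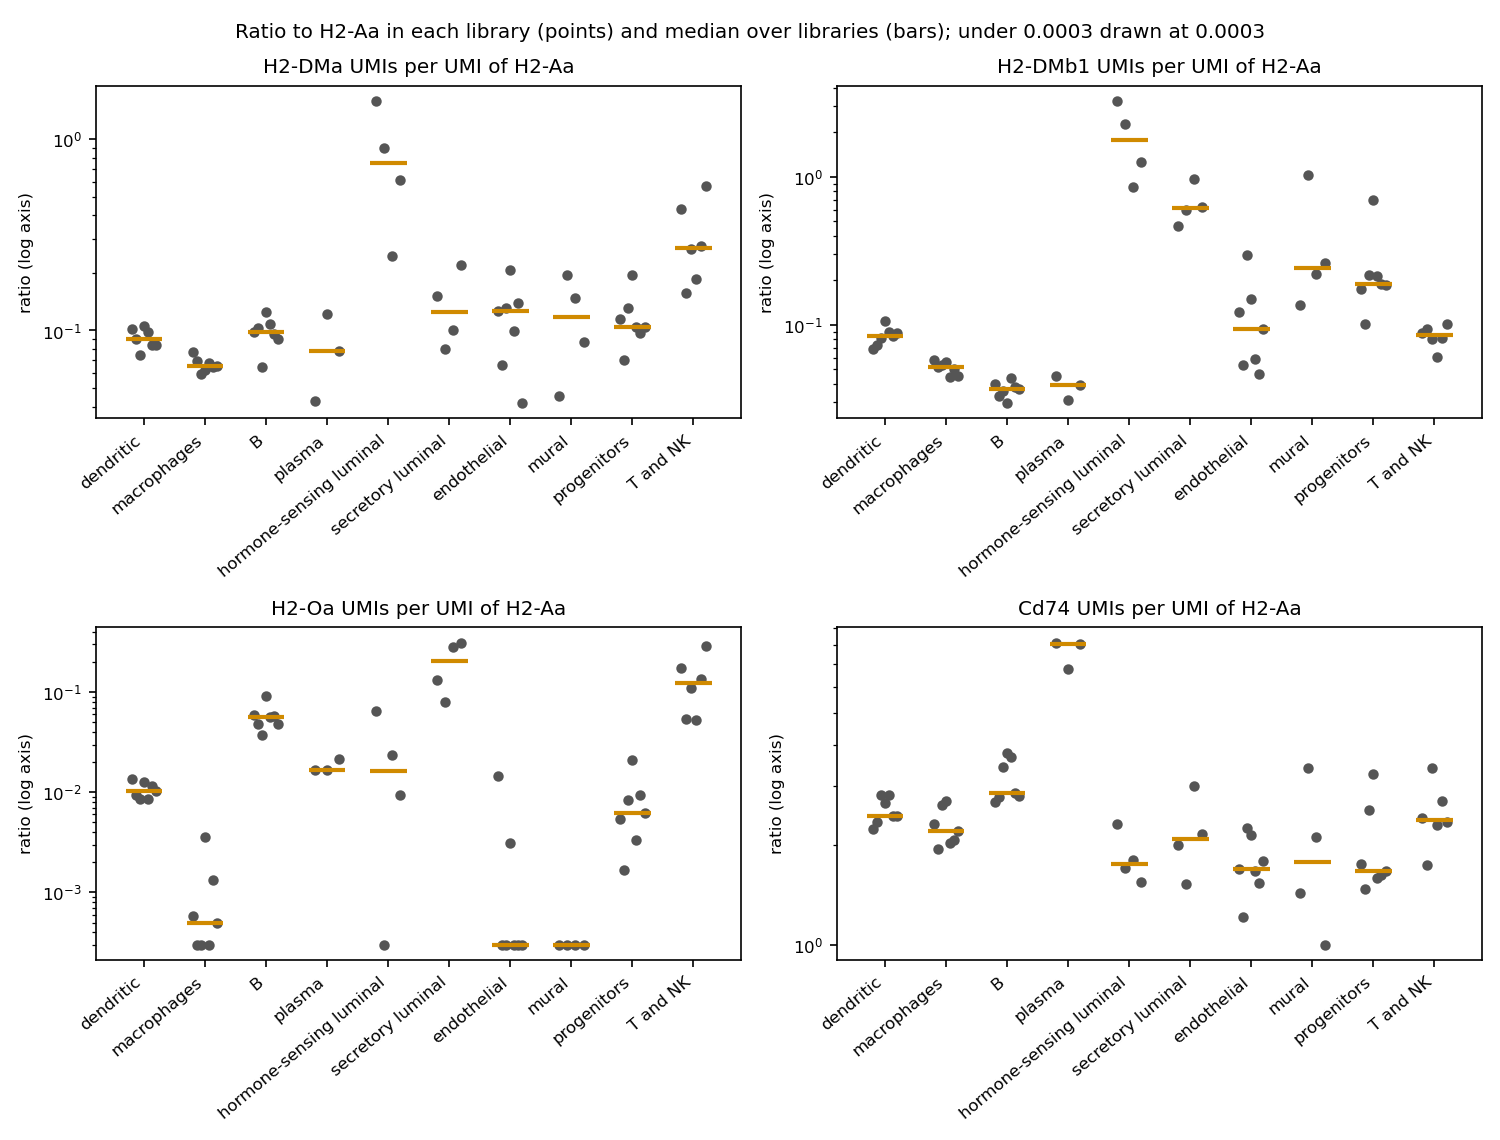
UMIs of H2-DMa, H2-DMb1, H2-Oa and Cd74 per UMI of H2-Aa (log axis) in each library with at least 20 UMIs of H2-Aa (points) and the median over libraries (bars), in 10 marker-based classes and subtypes. Hormone-sensing luminal cells stood highest for H2-DMa and H2-DMb1, secretory luminal and T and NK cells for H2-Oa, and plasma cells for Cd74.

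Among dendritic-like cells the type 2 subset, named from Cd209a, Clec10a and similar markers, carried more of most class II genes than the type 1 subset, named from Xcr1 and Clec9a. Each subset had at least 20 cells in 5 libraries. There H2-Ab1 averaged 9793 ± 497 CPM in type 1 and 13451 ± 1656 CPM in type 2 cells (n = 5 each). H2-DMb2 averaged 53.0 ± 15.7 CPM in type 1 and 151 ± 77.0 CPM in type 2 cells. H2-Ob ran against the rest, at 164 ± 19.5 CPM in type 1 and 99.1 ± 24.4 CPM in type 2 cells. Type 1 over type 2 was lower for 8 genes and higher for H2-Ob alone in edgeR (log2 folds -1.53 for H2-DMb2, -0.69 for Cd74, -0.46 for H2-Ab1 and 0.73 for H2-Ob; 4 libraries with both subsets), where 28.5% of all genes tested changed. H2-DMa was the gene not called. With each of the 4 libraries left out, the Ciita and H2-DMb1 calls held in 1 of 4 fits each and the other 7 held in all 4.

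Migratory dendritic-like cells, which mature and leave for lymph nodes, were too few for a test, with 20 or more cells in 1 library only. In that library, old replicate 2, their 38 cells held 2082 CPM of H2-Ab1 and 64.3 CPM of H2-DMb1, against 11081 and 704 CPM in the type 2 cells of the same library.

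Macrophage-like cells were graded. The Lyve1 subset, 3244 of 5167 cells and named from Lyve1, Cd163 and Folr2, had 2816 ± 716 CPM of H2-Ab1 (n = 7). A cluster led by Spp1, Mmp12 and Trem2 had 6652 ± 1758 CPM (n = 7). A small cluster of 316 cells led by H2-M2, Dnase1l3, Acp5 and Cx3cr1 had 11387 ± 2018 CPM (n = 6), a mean within the range of dendritic-like libraries (8125 to 12129 CPM). The median cell of this small cluster had 0.266 times the UMIs of the median cell of its libraries, and it held 45.4% of the macrophage-like cells of young replicate 1 but 1.34% to 9.25% in the other 6 libraries.

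The small Cx3cr1 cluster was also where macrophage-like H2-Oa lay. H2-Oa was 27.9, 18.5 and 26.1 CPM there in old replicates 1 to 3 and 64.7, 91.7 and 128 CPM in young replicates 1, 3 and 4, from 29 and 102 UMIs in all. All 3 old libraries lay below the 3 young ones, as for 7.13% of all genes tested there, and the difference did not pass (log2 fold -1.81, SE 0.41, adjusted p = 0.137 in edgeR, where 0.251% of all genes were called). H2-Oa passed the filter on low counts there through its level in the young libraries, so this fold gives a rough size only. In the Lyve1 subset H2-Oa reached at most 1.14 CPM. Its partner chain H2-Ob was 8.58, 10.6 and 40.5 CPM in the same old libraries and 5.99, 0 and 0 CPM in the young ones, where the zeros allow up to 8.34 and 25.6 CPM (3 counts per library).

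**Figure D3:**
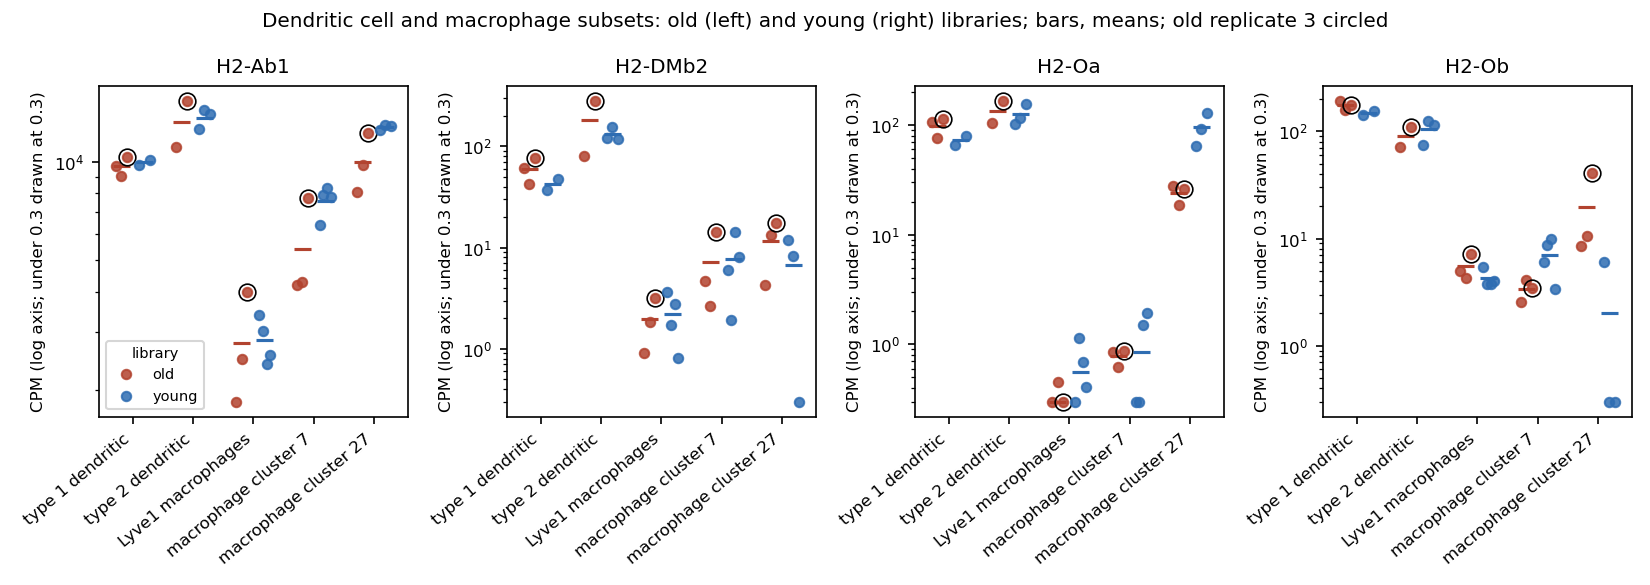
H2-Ab1, H2-DMb2, H2-Oa and H2-Ob (CPM, log axis) in dendritic-like and macrophage-like subsets, 1 point per library with at least 20 cells, old left of young, bars for means. H2-Ab1 climbs from the Lyve1 subset through cluster 7 (Spp1, Mmp12) to cluster 27 (Cx3cr1), where H2-Oa lies between 18.5 and 128 CPM and H2-Ob between 0 and 40.5 CPM, with H2-Ob above H2-Oa in old replicate 3.

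Set against the Lyve1 subset, all 7 tested genes were higher in the Spp1 cluster, with log2 folds from 1.08 to 1.42, where 16.4% of all genes tested were higher. In the Cx3cr1 cluster H2-Ab1 and Cd74 were higher, with log2 folds of 2.27 and 2.34, as were H2-Aa, H2-Eb1, H2-DMa, H2-DMb1 and Ciita, where 22.9% of all genes were higher (edgeR as above). H2-Oa entered that test only through its level in the Cx3cr1 cluster, so its difference is given by the levels above. These comparisons were added after the levels had been seen.

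The grading was also visible cell by cell. After each cell was thinned to 1500 UMIs, leaving out 171 of the 5167 macrophage-like cells with fewer (96 old and 75 young), the summed UMIs of H2-Aa, H2-Ab1 and H2-Eb1 had medians of 6 to 18 per cell over libraries in the Lyve1 subset. There 5.05% to 19.7% of cells had none. The medians were 21 to 49 in the Spp1 cluster, 41 to 63.5 in the Cx3cr1 cluster, where 115 of 316 cells were too shallow, and 49 to 76 in type 2 dendritic-like cells. Monocyte-like cells were the most uneven, with a median of 0 to 4.5 and 31.8% to 60.7% of cells at 0.

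A further cluster of 526 cells had too low a marker score for a class name and was led by Lyz1, Ear2 and Ccr2. It held 7840 ± 513 CPM of H2-Ab1 (n = 5) and 131 ± 46.8 CPM of H2-DMb2, against 102 ± 43.1 CPM in dendritic-like cells (n = 7). H2-Oa was 0 and 4.96 CPM there in old replicates 2 and 3 and 0, 0 and 0.705 CPM in young replicates 2 to 4.

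Luminal-like cells, the milk duct epithelium that enters an inguinal fat pad preparation with the mammary gland, had much H2-DMb1 for their level of the I-A chains. They held 0.250% of all H2-Ab1 UMIs but 3.71% of all H2-DMb1 UMIs. H2-DMb1 averaged 26.0 ± 5.78 CPM in luminal-like, 5.86 ± 6.71 CPM in endothelial-like and 6.56 ± 1.35 CPM in progenitor-like cells (n = 7 each). Per library it was 17.0, 21.5 and 23.8 CPM in old and 28.8, 33.7, 26.5 and 31.1 CPM in young luminal-like cells. In all 7 libraries it lay above the level of the endothelial-like cells of the same library, whose highest value was 20.9 CPM in old replicate 3.

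Luminal-like over endothelial-like cells, H2-DMb1 was higher with a log2 fold of 2.50 (edgeR quasi-likelihood test, Benjamini-Hochberg adjusted p = 0.000198), and H2-Aa, H2-Ab1, H2-Eb1 and Cd74 were lower, with log2 folds from -0.90 for H2-Aa to -0.49 for H2-Ab1. The background in this comparison was 70.4% of all genes changed. Without each library in turn, the H2-DMb1 call held in 7 of 7 fits, and the H2-Ab1 call in 3 of 7. The 2 luminal subtypes were also taken alone, a comparison added later. Hormone-sensing cells (named from Prlr, Esr1 and Pgr) had an H2-DMb1 log2 fold of 2.66 over endothelial-like cells and secretory cells (Csn3, Wfdc18) 1.38, both called (71.2% and 62.1% of all genes changed). Luminal-like over basal epithelial-like cells, H2-DMb1 was not called (log2 fold 0.52), while H2-Aa, H2-Ab1, H2-Eb1 and Cd74 were lower, where 39.9% of all genes changed. Of these only the Cd74 call held without each library in turn. Among all classes, H2-DMb1 averaged 22.0 ± 12.1 CPM in basal epithelial-like (n = 6) and 45.5 ± 14.02 CPM in Schwann-like cells (n = 3).

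The share of H2-DMb1 among class II UMIs differed from that of the presenting cells. Luminal-like cells had 1.04 UMIs of H2-DMb1 per UMI of H2-Aa at the median of 7 libraries (0.630 to 2.91). In dendritic-like, macrophage-like and B-like cells the ratio stayed between 0.0296 and 0.106 in every library. Among other classes outside the presenting cells it was 0.0938 (0.0465 to 0.298) in endothelial-like, 0.19 (0.102 to 0.701) in progenitor-like, 0.242 (0.136 to 1.02) in mural-like and 0.291 (0.150 to 1.16) in basal epithelial-like cells, and 0.307 in the 1 Schwann-like library with enough UMIs. These ranges of mural-like, basal and progenitor-like cells overlap that of luminal-like cells. In the hormone-sensing subtype the medians were 1.76 for H2-DMb1 and 0.752 for H2-DMa, and in the secretory subtype 0.6125 and 0.125 (4 libraries each).

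Cells without any UMI of 8 leukocyte genes (Ptprc, Tyrobp, Lyz2, Cd79a, Cd79b, Cd3e, C1qa, Fcer1g) had a like level. In the 5 libraries with at least 20 such luminal-like cells, H2-DMb1 was 18.7 ± 9.37 CPM in them and 20.4 ± 4.82 CPM in all luminal-like cells of the 2 old libraries. In the 3 young libraries it was 32.4 ± 6.76 CPM in them and 31.2 ± 2.45 CPM in all.

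The I-A and I-E chains in the same luminal-like cells were low relative to all RNA. After thinning to 1500 UMIs, 4.29% of luminal-like and 6.74% of endothelial-like cells had a UMI of H2-Ab1. The same share was 6.76% in mural-like and 5.13% in progenitor-like cells, which should lack the gene, and 16.3% in neutrophil-like cells. Unthinned, the shares were 54.1%, 31.7%, 23.7%, 35.4% and 34.7% in these 5 classes, whose median UMIs per cell were 27016.5, 8546, 5694, 13650.5 and 3267 over libraries. Thinning left out 19 luminal-like cells (9 old and 10 young) and 40 endothelial-like cells (14 old and 26 young). The thinned share of luminal-like cells was thus the lowest of the 5 classes and the unthinned share the highest, in the class with the most UMIs per cell. The part of free RNA in the H2-Ab1 UMIs of luminal-like and endothelial-like cells was not tested. An endothelial-like cluster was led by Ccl21a, Plvap, Selp and Lrg1, with Mmrn1 also among its leading genes, and got no subtype name. This cluster had more H2-Ab1 than capillary-like cells. It had 36.2, 59.3 and 33.05 against 16.5, 45.9 and 28.4 CPM in young replicates 1, 2 and 4. In old replicates 1 and 2 it had 94.97 and 79.7 against 31.8 and 75.8 CPM. In cells without leukocyte UMIs it had 38.4, 31.6 and 19.3 against 12.1, 41.7 and 22.2 CPM in those young replicates. Only young replicate 1 was higher there, and the difference was not tested. For H2-DMb1 the thinned share was 3.43% in luminal-like, 0.797% in endothelial-like and 0.984% in progenitor-like cells (52.6%, 5.03% and 8.99% unthinned). It was 2.37% in mural-like and 7.04% in Schwann-like cells (8.13% and 12.0% unthinned), so the thinned share of luminal-like cells lay above some of the cell types that should lack class II and below another.

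Endothelial-like cells did not differ from progenitor-like cells in any of the 7 genes tested (edgeR, 0 called, 71.5% of all genes changed). At an unadjusted p under 0.05 there were 2, H2-Ob (log2 fold 0.78, adjusted p = 0.0504) and H2-Aa (log2 fold 0.37, adjusted p = 0.0548). H2-Ob was called without young replicate 3, and H2-Aa without young replicate 3 or 4. Cd74 was called without young replicate 3, H2-DMa without young replicate 4 and H2-DMb1 without old replicate 3. Ciita was listed with 16 UMIs in all 3808 endothelial-like cells and 9 UMIs in all 1131 luminal-like cells.

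Between ages, no class II gene was called in dendritic-like, macrophage-like or B-like cells. All 10 genes passed the filter on low counts in these 3 classes. The share of all genes called was itself low, at 0.0225% in dendritic-like, 0.189% in macrophage-like and 0.865% in B-like cells (edgeR quasi-likelihood test, old over young). At an unadjusted p under 0.05 there were 0, 1 and 0 of the 10 genes in these classes, the 1 being H2-Oa in macrophage-like cells, and DESeq2 called 0 in all 3.

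In dendritic-like cells H2-Ab1 was 9049, 8125 and 11162 CPM in old replicates 1 to 3, against 10120, 9754, 10268 and 12129 CPM in young replicates 1 to 4. Old replicates 1 and 2 lay below all young libraries and old replicate 3 among them, and the log2 fold was -0.13 (SE 0.23). Type 2 cells were 15 of 60, 49 of 189 and 66 of 139 dendritic-like cells in old libraries. In young libraries they were 4 of 38, 68 of 190, 27 of 58 and 107 of 160, and their part was not tested. Within type 2 cells (2 old and 3 young libraries) 7 folds were positive, 3 negative and 0 called in edgeR, where 0.0462% of all genes were called. Cd74 was 18870, 17515 and 40362 CPM in old and 21552, 24788, 25643 and 30600 CPM in young dendritic-like cells. Here old replicates 1 and 2 lay below and old replicate 3 above every young library, and the log2 fold of 0.06 turned to -0.59 without old replicate 3.

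Macrophage-like cells had the same shape. H2-Ab1 was 3003, 3556 and 6354 CPM in old and 8409, 4419, 4923 and 4262 CPM in young libraries. Old replicates 1 and 2 lay below all 4 young libraries, and young replicate 1, with its large share of the Cx3cr1 cluster, above all others. The log2 fold was -0.29 (SE 0.37), and the log2 fold of Cd74 was -0.0059 (SE 0.46). With all libraries 7 folds were negative and 3 positive, where 48.6% of all genes tested had positive folds. Without old replicate 3, all 10 folds were negative, from -2.57 to -0.19, 5 of them with an unadjusted p under 0.05 and none called (lowest adjusted p = 0.549 in edgeR). The shares of all genes with a negative fold or such a p were not counted in that fit. The 10 genes share the same libraries, so their signs are not separate observations. Within the Spp1 cluster alone, where young replicate 1 was the lowest young library, H2-Ab1 was 4177, 4286 and 7737 CPM in old and 6374, 7925, 8279 and 7788 CPM in young libraries. All 9 tested folds there were negative without old replicate 3, and none was called (lowest adjusted p = 0.157 in edgeR). The share of all genes with a negative fold was not counted in that fit either. With all libraries all 9 were negative too, where 50.1% of all genes tested had positive folds and 0.938% were called.

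H2-Oa in macrophage-like cells was 2.22, 1.05 and 2.25 CPM in old and 31.5, 1.08, 8.08 and 2.94 CPM in young libraries. The groups overlapped through young replicate 2, and the log2 fold of -2.35 (SE 0.99) had an unadjusted p of 0.0397 and an adjusted p of 0.752 in edgeR. The 4 young values had the same order as the share of the Cx3cr1 cluster among macrophage-like cells, which was 45.4%, 1.34%, 9.09% and 2.85%, against 6.46%, 3.30% and 9.25% in old libraries. Its part in the result was not tested.

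In B-like cells old replicate 3 again stood outside the range of the others for some genes. H2-Ab1 was 4843, 4231 and 5198 CPM in old and 3733, 4008, 5027 and 5260 CPM in young libraries, and the groups overlapped (log2 fold 0.07, SE 0.21). Cd74 was 13316, 12296 and 30566 CPM in old and 14149, 15255, 16282 and 16750.5 CPM in young libraries. Old replicates 1 and 2 lay below every young library and old replicate 3 above, and the log2 fold of 0.31 (SE 0.29) became -0.40 and passed the threshold without old replicate 3 (adjusted p = 0.0472 in edgeR). Ciita was 81.9, 71.3 and 31.7 CPM in old and 94.9, 64.0, 123 and 67.5 CPM in young libraries, with a log2 fold of -0.63 (SE 0.32, unadjusted p = 0.0645 and adjusted p = 0.676 in edgeR). The lowest was again old replicate 3. H2-Ab1 per H2-Aa was 0.586 in the B-like cells of old replicate 3 and 0.885 to 1.00 in the other 6 libraries.

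**Figure D4:**
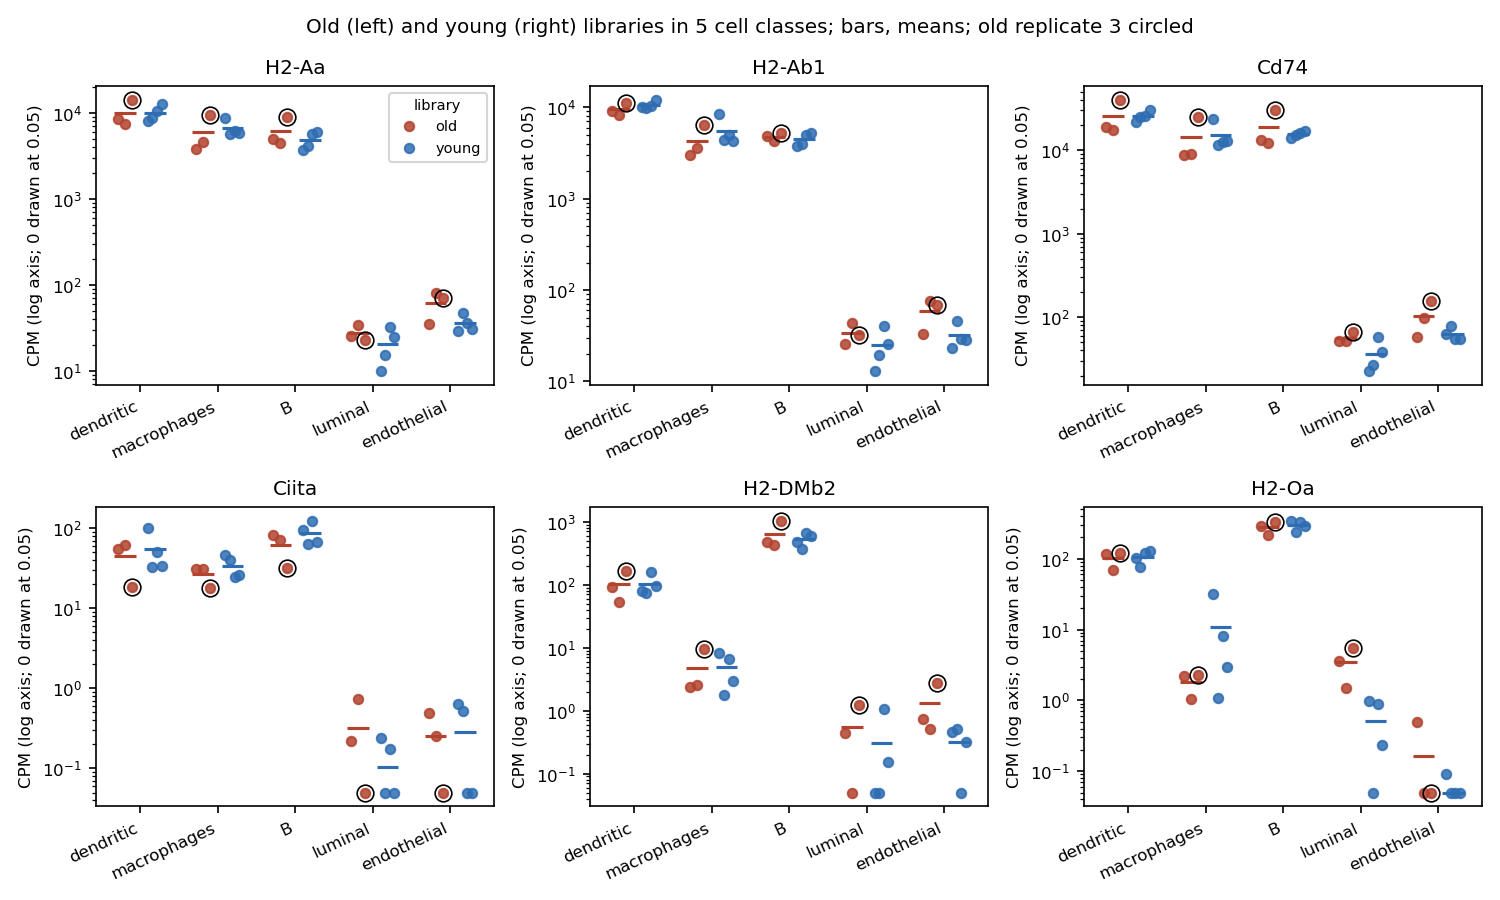
H2-Aa, H2-Ab1, Cd74, Ciita, H2-DMb2 and H2-Oa (CPM, log axis) in 5 marker-based classes, 1 point per library, old left of young, bars for means, old replicate 3 circled. In dendritic, macrophage and B columns the circled library is the highest of the old libraries for H2-Aa, H2-Ab1, Cd74 and H2-DMb2 and the lowest for Ciita.

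Luminal-like cells held the only called age difference, in H2-DMa, the alpha chain of H2-DM. H2-DMa was 4.24, 3.70 and 3.97 CPM in old and 13.9, 13.5, 7.89 and 14.95 CPM in young luminal-like cells, from 37 and 635 UMIs. Every old library lay below every young one. The means were 3.97 ± 0.271 CPM in old and 12.6 ± 3.18 CPM in young libraries (SD, n = 3 and 4), a log2 fold of -1.61 (SE 0.33, adjusted p = 0.0201 in edgeR). It was 1 of 6 class II genes that passed the filter on low counts in this class, where 7.52% of all genes were called. The call was lost without old replicate 1 and without young replicates 2 or 4, while the log2 fold stayed negative. It was also lost with a stricter cell filter, with equal UMIs per cell, in cells without leukocyte UMIs and with a replicate block (adjusted p = 0.257, 0.0508, 0.145 and 0.0597 in edgeR). Of all genes tested in luminal-like cells, 12.1% had every old library below every young one and 8.06% every old library above. H2-DMb1 was among those below (20.7 ± 3.46 CPM in old and 30.0 ± 3.10 CPM in young, log2 fold -0.50, SE 0.23), with an adjusted p of 0.227 in edgeR. H2-Eb1 was among those above (29.3 ± 1.64 CPM in old and 16.7 ± 6.73 CPM in young, log2 fold 0.85, adjusted p = 0.159 in edgeR).

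The makeup of the luminal-like cells differed between ages. Hormone-sensing cells were 14.5%, 24.5% and 15.1% of them in old and 73.6%, 90.5%, 82.4% and 93.0% in young libraries. Within hormone-sensing cells H2-DMa was 2.82, 4.21 and 7.21 CPM in old (20, 13 and 16 cells; 14 UMIs in all) and 15.3, 13.6, 8.001 and 15.1 CPM in young libraries (352, 67, 56 and 199 cells). The old libraries lay below all young ones, but the share of all genes with this pattern was not counted in this subtype. The log2 fold was -1.43 (SE 0.43, adjusted p = 0.206 in edgeR, where 0.775% of all genes were called). In secretory cells H2-DMa was 4.69, 3.14 and 2.31 CPM in old and 2.63, 6.56 and 0 CPM in the young libraries 1, 3 and 4, where the 0 of 15 cells allows up to 20.9 CPM. Those groups overlapped, and H2-DMa was not tested there (0.483% of all genes were called). H2-DMb1 in secretory cells went the other way from all luminal-like cells, at 20.01 ± 4.95 CPM in old and 10.8 ± 3.21 CPM in young libraries (n = 3 each; log2 fold 1.26, adjusted p = 0.533 in edgeR).

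**Figure D5:**
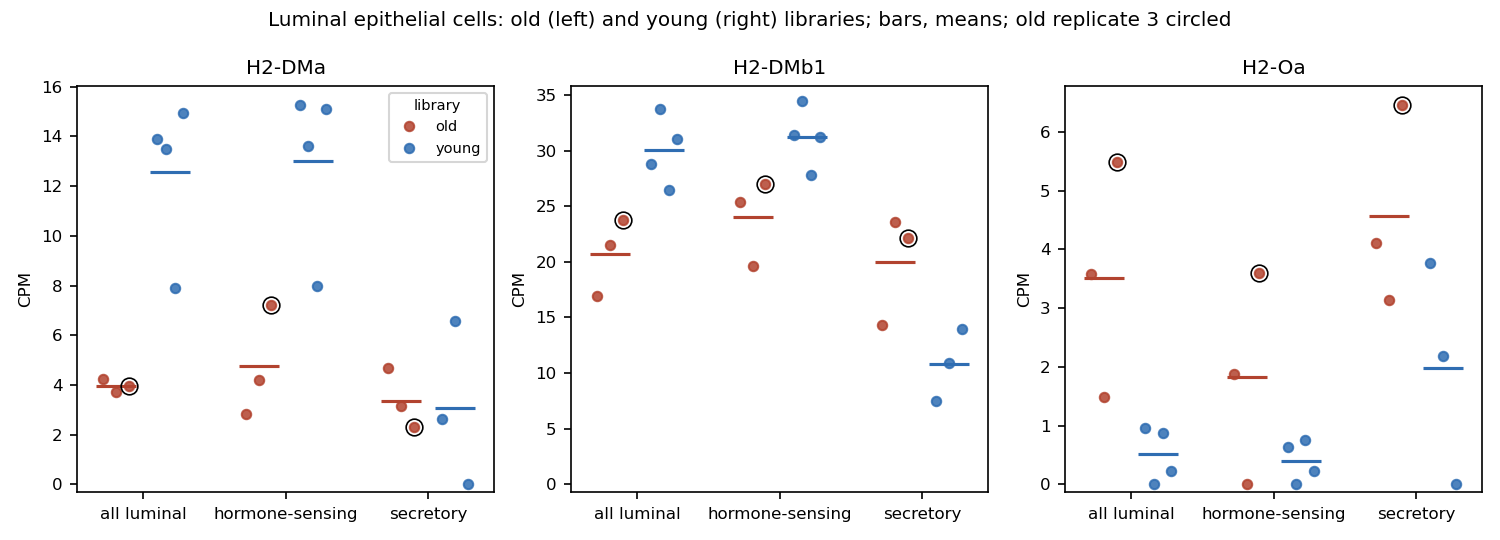
H2-DMa, H2-DMb1 and H2-Oa (CPM) in all luminal-like cells and, for libraries with at least 10 cells, in the hormone-sensing and secretory subtypes, 1 point per library, old left of young, bars for means, old replicate 3 circled. H2-DMa is lower in old libraries in all luminal and hormone-sensing cells, and overlaps in secretory cells.

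H2-Oa was not tested between ages in luminal-like cells because it did not pass the filter on low counts. It was 3.57, 1.48 and 5.49 CPM in old and 0.968, 0, 0.876 and 0.232 CPM in young libraries, from 36 and 32 UMIs, and every old library lay above every young one, as for 8.06% of the genes tested in this class. Secretory cells, the larger subtype in old libraries, had 4.10, 3.14 and 6.46 CPM in old and 3.76, 2.19 and 0 CPM in young libraries 1, 3 and 4, from 30 and 11 UMIs. The difference of the age effect between luminal-like and macrophage-like cells was called for H2-Oa (5.05 on the log2 scale, SE 0.64, adjusted p = 0.00983 in edgeR), where 2.09% of all genes were called. H2-Oa passed the filter on low counts in that comparison through its macrophage-like counts. The call therefore does not test H2-Oa between ages in luminal-like cells. H2-Oa was the only one of the 10 genes called in the 4 such comparisons, each against macrophage-like cells. In those of dendritic-like, B-like and endothelial-like cells 0.0282%, 0.294% and 0.295% of all genes were called. Both cell makeups above move with the H2-Oa difference, and their part in the result was not tested. On simulated data the test of age effects between dendritic-like and macrophage-like cells recovered 6% of differences of log2 1 and 88% of those of log2 2. Genes not called are therefore not shown to have like age effects between classes.

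Endothelial-like cells had more of the I-A and I-E chains in old libraries, but no gene was called. H2-Aa was 34.6, 79.9 and 70.1 CPM in old and 29.1, 46.9, 36.1 and 30.8 CPM in young libraries. Old replicates 2 and 3 lay above every young library and old replicate 1 among them, and the log2 fold was 0.80 (SE 0.29, adjusted p = 0.372 in edgeR). H2-Eb1 was 32.6, 50.5 and 51.6 CPM in old and 22.0, 30.0, 29.4 and 25.7 CPM in young libraries, and here every old library lay above every young one, as for 3.32% of all genes tested (log2 fold 0.78, SE 0.22, adjusted p = 0.223 in edgeR). Of the 6 genes tested, 5 had an unadjusted p under 0.05 and 0 were called by edgeR or DESeq2, where 0.156% of all genes were called. The share of all genes with such an unadjusted p was not counted.

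Other classes that should lack class II went both ways. In T and NK-like, basal epithelial-like and mast-like cells 5, 3 and 2 tested folds were positive and 4, 2 and 2 negative. In progenitor-like cells all 8 tested folds were positive, with H2-Aa at 45.1 ± 16.6 CPM in old and 25.8 ± 11.5 CPM in young libraries (n = 3 and 4). In mural-like cells all 4 were positive, and Cd74 was 101 ± 50.1 CPM in old and 48.1 ± 14.8 CPM in young libraries. No class II gene was called in either by edgeR (2 and 3 had an unadjusted p under 0.05), where 1.82% and 0% of all genes were called. Of all genes tested in progenitor-like and mural-like cells, 50.4% and 49.4% had positive folds. Over all kept cells of a library, H2-Aa was 811, 1693 and 3642 CPM in old and 309.97, 913, 1162 and 1173 CPM in young libraries. The 8 macrophage markers summed to 31.0 to 176 CPM in old and 33.4 to 63.6 CPM in young endothelial-like cells. In endothelial-like cells without a UMI of the 8 leukocyte genes, H2-Aa was 62.2 ± 23.8 CPM in old and 34.2 ± 7.15 CPM in young libraries, close to the level in all of them. The part of free RNA in the result was not tested.

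Other genes of the pathway, in 5 lists, seldom passed the test between ages. No list member was called in dendritic-like, macrophage-like or endothelial-like cells, where 21, 21 and 21 interferon gamma response genes, 9, 9 and 9 lysosomal processing genes and 10, 10 and 9 transcription factors of class II were tested. In B-like cells 1 of 7 tested costimulation and turnover genes fell, where 0.249% of all genes were lower. It was Icosl, the ligand of the T cell receptor ICOS, at 26.3 ± 3.80 CPM in old and 79.1 ± 11.0 CPM in young libraries (log2 fold -1.55, adjusted p = 0.00931 in edgeR). In luminal-like cells 1 of 9 lysosomal and 2 of 18 interferon gamma response genes rose, where 4.53% of all genes were higher. They were Ctss, the protease cathepsin S that trims Cd74 (10.1 ± 4.78 CPM in old and 2.94 ± 0.852 CPM in young), Ifngr1, the ligand-binding chain of the interferon gamma receptor (53.8 ± 13.9 CPM in old and 27.2 ± 6.70 CPM in young), and Gbp3, an interferon-induced GTPase (7.89 ± 3.43 CPM in old and 2.40 ± 0.920 CPM in young). The shift of makeup given above also holds for these 3 genes.

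Between classes the same lists moved with the class II genes in part only. Luminal-like over endothelial-like cells, 20 of 21 interferon gamma response genes were lower and 0 higher, where 33.6% of all genes were lower. Endothelial-like over progenitor-like cells, 17 of 21 were higher and 4 lower, where 33.6% of all genes were higher and 37.9% lower and no class II gene was called. Macrophage-like over B-like cells, 8 of 9 lysosomal genes were higher and 7 of 11 transcription genes lower, where 32.1% of all genes were higher and 30.9% lower.

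Across 83 sums of class and library from 14 classes, which share libraries and depth, the non-class-II genes closest to H2-Ab1 were Cd86, Ly86, Cd180, Cd83 and Rnase6 (Pearson r of log2(CPM + 1) from 0.951 to 0.922, among 10698 genes). Those closest to H2-Ob were Fcrla, Spib, Tnfrsf13c, H2-Eb2 and Siglecg (0.929 to 0.884), all highest in B-like cells. Those closest to Ciita were Cd180, Kmo, 5031414D18Rik, Ly86 and Cd86 (0.943 to 0.907). Within the 10 genes, the r with H2-Ab1 ran from 0.995 for H2-Eb1 to 0.738 for H2-Oa. These are descriptions of likeness over few classes.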

How the data were processed

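Stromal vascular cells of inguinal fat from 3 old and 4 young female mice were sequenced as single cells with the 3′ v3 kit of 10x Genomics, per the labels' protocols. The deposited matrices hold whole-number UMI counts per gene and barcode, which per the submitters' processing notes name Cell Ranger 4.0.0 and the mouse build mm10. They were deposited unnormalised, and the lowest count per barcode was 500 UMIs.

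Cells were kept with at least 500 UMIs, 300 genes and at most 15% mitochondrial UMIs. Doublets were called per library with Scrublet at 0.8% per 1000 barcodes (2.51% to 7.34% of cells) and left out after clustering. Clustering (scanpy 1.11.5, 2000 variable genes, 30 components, 15 neighbours, Leiden resolution 1, leidenalg 0.10.2) left out the 10 genes and H2-Eb2 and gave 40 clusters. Clusters were named from marker lists, with score limits chosen when the clusters were named, and a difference from other work may come from these rebuilt names. Luminal and macrophage subtypes follow whole clusters, and dendritic subtypes a second clustering. The members, lists and markers were chosen with earlier results of these data known.

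Counts were summed per library and class with at least 20 cells (luminal subtypes also at least 10). CPM is the UMI sum over all UMIs of that class and library on the usual scale, with no scaling for gene length because each 3′ molecule gives 1 UMI. Sums were tested with edgeR 4.0.16 under R 4.3.3 (filterByExpr, TMM, glmQLFit, glmQLFTest, 2-sided), Benjamini-Hochberg adjusted over all genes tested, threshold 0.05. Age was tested with no covariate, and classes were compared with library as a block. The difference of age effects between classes was an interaction term with library as a block. Shares of cells used cells thinned to 1500 UMIs. A count of 0 allows 3 counts, and such limits cover counting error only. The rule for named genes took all 10 members. Of 5 pathway lists, members are named where called (the 2 of lowest p that the rule adds to lists without a call are not printed), and likeness took the 5 closest genes with at least 20 CPM in a class.

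On simulated data with 200 changed genes, the age test recovered 47% of changes of log2 1 in dendritic-like, 59.5% in macrophage-like, 45% in B-like, 52.5% in luminal-like and 58.5% in endothelial-like cells, and 98%, 100%, 99.5%, 99% and 100% of changes of log2 2. Every simulated gene had the same set spread between libraries, so these recovered shares do not hold for genes with a wider spread. Replicates of 1 age differed by more than sampling noise (chi-square per degree of freedom at least 17.96). Alternatives were DESeq2 1.42.0, RLE scaling, no filter, stricter cell filters, doublets kept, Leiden resolution 2, clustering with the members, equal depth, cells without leukocyte UMIs, a replicate block, and each library left out.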

Additional observations from a re-analysis of the deposited data

Results flagged for a closer look

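Of the 50 sets of 4 young libraries checked (10 genes in 5 classes), 10 held a library far from the other 3; chance flags about 1 in 20. In macrophage-like cells this was young replicate 1 for 5 genes: H2-Aa at 8838 CPM (the others 5644 to 6136), H2-Ab1 at 8409 CPM (4262 to 4923), H2-Eb1 at 8752 CPM (4347 to 4751), H2-DMa at 551 CPM (382 to 397) and Cd74 at 23935 CPM (11437 to 12984). In that library the Cx3cr1 cluster made up 45.4% of macrophage-like cells, against 1.34% to 9.25% in the other 6 libraries, and within the Lyve1 subset its H2-Ab1 level was 3384 CPM beside 2397 to 3038 CPM in the other young libraries.

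In dendritic-like cells H2-DMa of young replicate 4 was 1056 CPM (the other young libraries 849 to 880). In luminal-like cells of young replicate 3, H2-DMb2 was 1.05 CPM (6 UMIs; the others 0 to 0.155) and H2-Ob 1.40 CPM (8 UMIs; 0 to 0.155). In endothelial-like cells of young replicate 1, H2-Ob was 2.08 CPM (0.643 to 0.862) and H2-Oa 0.0903 CPM, which is 1 UMI against none.

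The age effect of H2-Oa differed between luminal-like and macrophage-like cells by 5.05 on the log2 scale (edgeR interaction term), with higher levels in old luminal-like and in young macrophage-like cells. Its levels rest on 68 UMIs in luminal-like cells, where it did not pass the filter on low counts alone, and 161 in macrophage-like cells.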

How the results depend on the processing

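Of 518 log2 folds recomputed under the alternatives, 495 kept their sign, and 170 of 195 counts of class II genes called stayed within 1.5 times. Between ages, leaving out each library gave log2 folds of -0.38 to 0.013 for H2-Ab1, -0.77 to 0.047 for H2-DMb1 and -0.59 to 0.30 for Cd74 in dendritic-like cells, -0.83 to 0.31 for Cd74 in macrophage-like cells, and -0.10 to 0.21 for H2-Ab1 and -0.40 to 0.59 for Cd74 in B-like cells. Signs also turned for Cd74 in dendritic-like cells with a stricter cell filter (-0.13), for Cd74 in macrophage-like cells with no filter (0.029), a stricter cell filter (0.075), Leiden resolution 2 (0.055) and the members used in clustering (0.026), for H2-Ab1 in B-like cells with a stricter cell filter (-0.17) and for H2-DMb1 in secretory luminal cells alone (1.26). Class II genes called in luminal-like cells numbered 0 to 2 without each library, 2 with no filter, and 0 with a stricter cell filter, equal UMIs per cell, cells without leukocyte UMIs, or either subtype alone. In B-like cells they numbered 0 to 1 without each library. Same-numbered replicates did not deviate together in all pairs, so the numbers do not pair the libraries; with a replicate block, luminal-like calls were 0 and calls in the other 4 classes stayed 0. Between classes, the sign turned for macrophage-like over B-like cells in H2-Aa (-0.16) and H2-Eb1 (-0.12) in old libraries and H2-Ab1 with RLE scaling (0.061) or in young libraries (0.21), for luminal-like over endothelial-like cells in H2-DMa in old libraries (-0.54), and for endothelial-like over progenitor-like cells in H2-DMb1 in old libraries (0.029). Calls numbered 0 to 3 without each library, 1 in young libraries and 2 at resolution 2 for endothelial-like over progenitor-like cells. They numbered 1 to 4 without each library and 1 in young libraries for luminal-like over basal, 5 in old libraries for type 1 over type 2, 3 to 6 without each library for hormone-sensing and 2 in young libraries for secretory over endothelial-like cells. Calls over all genes between ages were 862 in luminal-like cells (1430 by DESeq2, 187 in cells without leukocyte UMIs, 5 with a stricter cell filter, 180 to 1077 without each library), 22 in macrophage-like (4 with the block to 157 by DESeq2, 0 to 120 without each library), 66 in B-like (4 with a stricter cell filter, 257 with no filter, 136 with the block, 23 to 218 without each library), 18 in endothelial-like (203 by DESeq2, 157 with no filter, 0 with the block, 3 to 34 without each library) and 2 in dendritic-like cells (10 by DESeq2, 8 with a stricter cell filter, 30 with no filter, 1 with doublets kept or equal UMIs per cell, 1 to 8 without each library). The cause was not tested. The comparison of migratory with type 2 dendritic-like cells could not be fitted. Old libraries were shallower than young ones, and H2-Oa, H2-Ob and Ciita rest on few UMIs outside B-like and dendritic-like cells.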
